A study of Rattus norvegicus with 27 samples.

Results

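The writers, erasers and readers of DNA methylation were examined in the medial prefrontal cortex (mPFC) of the rat. They are the DNA methyltransferases Dnmt1, Dnmt3a and Dnmt3b, the dioxygenases Tet1, Tet2 and Tet3, and the methyl-CpG binding domain proteins Mbd1, Mbd2 and Mbd3. All 9 genes, taken by their gene symbols, were found among the 36865 rows of the table of raw read counts, and 6 of them had counts.

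Polyadenylated RNA of 27 male Wistar rats was sequenced, with 1 library per rat. All rats had been tested repeatedly for anxiety-like behavior and were killed in a resting state, straight from the home cage, so that they form 1 group without a control. The purpose of the study was to relate expression to anxiety as a trait, but no score of a rat was used here. The sample labels name learned helplessness as the treatment of every rat, also list a battery of anxiety tests and fear conditioning, and differ from the paper in the library kit and the section of cortex. The strain is outbred and no gene was altered. What can be compared is therefore how high each gene was, how much it differed from rat to rat, and how the genes varied together.

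In mammals, methyl groups are put on cytosine, mostly where a guanine follows, by DNA methyltransferases. Dnmt1 copies the pattern onto the new strand after replication and Dnmt3a and Dnmt3b methylate unmarked sites, while Tet enzymes oxidise the methyl group as a first step of its removal. Proteins with a methyl-CpG binding domain recognise the mark and bring in repressor complexes such as NuRD. In the brain, Dnmt1 and Dnmt3a stay expressed in neurons that no longer divide, and Dnmt3b is chiefly a gene of the early embryo.

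Between 4907255 and 12771309 reads per library were counted on genes. The number in the library name divided the libraries by depth, with 4907255 to 8568317 reads in the 16 libraries numbered up to 31 and 9404220 to 12771309 reads in the 11 numbered from 32. The labels do not say what divides these blocks, so that sequencing runs and cohorts of rats cannot be told apart. Library 3 stood apart, with a median correlation with the other libraries of 0.957, against 0.976 to 0.986 for the other 26. It also had the largest share of counts on ribosomal protein genes (1.90%, against 1.03% to 1.54%), the highest summed level of 4 mature oligodendrocyte markers and of 3 endothelial markers (2572), and the lowest of 6 neuronal markers. In normalized counts, the oligodendrocyte sum ran from 14964 to 54237 in the libraries up to 31 and from 14376 to 31230 in those from 32, and the neuronal sum from 38981 to 53774 and from 43781 to 54589. The endothelial sum reached at most 2466 from 32. Libraries 12 and 20 had the largest ribosomal RNA shares, 0.953% and 0.782% of counts, where the next library had 0.257%. Neuronal markers, among them Snap25 and Slc17a7, were present in every library.

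The regions around the transcription starts are shown for 3 members, the maintenance writer Dnmt1, the de novo writer Dnmt3a and the reader Mbd3, to set a steady writer beside a variable one and a reader beside both. The sequences are from RefSeq, assembly GRCr8, and run from 250 bases before to 50 bases after the start, 5′ to 3′ on the strand of the gene. Each window stands for 1 annotated start and lies inside the gene. The annotated gene begins upstream of it, at 32507316 for Dnmt3a, 9961053 for Mbd3 and 27763405 for Dnmt1. Motif and CpG counts of these genes hold for the windows shown and not for their other starts. Capitals mark matches on either strand to the binding motif of the activator NRF1 (GCGCA and GCGC with any base between them) and to GGGCGG, the core of the SP1 motif, of which overlapping matches were counted.
Dnmt1, chr8:27762792-27763091, minus strand: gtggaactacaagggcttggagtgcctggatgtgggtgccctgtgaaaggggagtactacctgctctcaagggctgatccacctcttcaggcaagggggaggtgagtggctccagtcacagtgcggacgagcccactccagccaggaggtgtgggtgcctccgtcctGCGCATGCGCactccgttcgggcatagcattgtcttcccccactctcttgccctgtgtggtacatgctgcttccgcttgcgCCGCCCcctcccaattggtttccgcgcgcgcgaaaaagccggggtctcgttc
Dnmt3a, chr6:32598352-32598651, plus strand: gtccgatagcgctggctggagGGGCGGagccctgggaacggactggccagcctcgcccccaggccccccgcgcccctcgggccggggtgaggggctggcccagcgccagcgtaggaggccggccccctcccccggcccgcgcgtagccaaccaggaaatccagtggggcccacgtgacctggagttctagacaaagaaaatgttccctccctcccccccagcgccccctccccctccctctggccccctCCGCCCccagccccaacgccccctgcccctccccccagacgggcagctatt
Mbd3, chr7:9963390-9963689, plus strand: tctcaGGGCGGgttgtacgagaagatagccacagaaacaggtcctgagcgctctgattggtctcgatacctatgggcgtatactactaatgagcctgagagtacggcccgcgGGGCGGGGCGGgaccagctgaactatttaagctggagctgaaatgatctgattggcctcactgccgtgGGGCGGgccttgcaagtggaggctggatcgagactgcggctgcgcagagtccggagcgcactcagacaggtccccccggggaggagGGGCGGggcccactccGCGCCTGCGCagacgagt
The NRF1 letters occurred 1 time at Dnmt1, 2 times at Mbd1 and 1 time at Mbd3, and at 0 sites at Dnmt3a, Mbd2 and the Tet genes, while 4.25% of 33469 promoters of the same length held them. The SP1 letters, held by 33.1% of these promoters, occurred 1 time at Dnmt1, 2 times at Dnmt3a, 0 times at Mbd1, 4 times at Mbd2, 5 times at Mbd3 and between 0 and 3 times at the promoters of the Tet genes. CpG dinucleotides, which are the substrate of the writers, numbered 17 at Dnmt1, 21 at Dnmt3a, 25 at Mbd1, 39 at Mbd2 and 23 at Mbd3, where the median of all promoters was 7. The promoters of the Tet genes lay on both sides of that median, with 3, 4 and 16 at Tet1, 39 at Tet2 and 3, 3, 15 and 23 at Tet3. A match describes the sequence and not a bound site.

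The maintenance methyltransferase Dnmt1 was among the steadiest genes of the tissue. Its normalized count (reads divided by the size factor of the library) was 464 ± 33.3 (SD, n = 27), with a lowest value of 414 in library 19, a median of 463 and a highest of 550 in library 51. The values of the other libraries lay between 420 and 512, and the blocks of libraries overlapped. The SD of its log2 level was 0.10, and 8.95% of the 11730 genes with a mean of at least 10 reads had a smaller one. The median gene had an SD of 0.19.

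The de novo methyltransferases varied more. Dnmt3a, which sets most of the methylation that neurons gain after birth, stood at 186 ± 39.4 (SD, n = 27), with a lowest value of 84.1, a median of 188 and a highest of 278. The lowest value came from library 3, the next was 132 in library 19, and the highest came from library 51, which was also the highest for Dnmt1. The SD of the log2 level of Dnmt3a was 0.33 and exceeded that of 78.5% of genes. Without library 3 its mean was 190 ± 34.4 (SD, n = 26). Dnmt3b was barely counted, at 6 to 36 reads per library. Its normalized count was 15.96 ± 6.29 (SD, n = 27), from 6.30 in library 28 through a median of 15.6 to 30.6 in library 35. The row overlaps an annotated pseudogene, Dnmt3b-ps1, and those of Dnmt3a and Mbd2 each overlap a long non-coding RNA, so that reads of these pairs may not be told apart.

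The erasers Tet1, Tet2 and Tet3, which oxidise 5-methylcytosine, were listed at 0 in all 27 libraries. No level, spread or relation could thus be given for the erasing side of the pathway. A row at 0 was not particular to them. Among protein-coding genes for which RefSeq lists predicted transcripts only, 2397 of 2415 (99.3%) were listed at 0 in every library, against 3662 of 18209 (20.1%) with at least 1 curated transcript. Tet1 and Tet3 belong to the former class, whereas Tet2 has 1 curated transcript. LOC100910945, a non-coding locus which overlaps Tet1, had 46.6 reads on average. Of 55 further genes of the pathway, 8 were also listed at 0, namely Mbd4, Mbd5, Kmt2a, Chd3, Chd4, Mta3, Atf7ip and Chaf1a. Each of these 8 has 1 or 2 curated transcripts and lies outside the class with predicted transcripts only. Several of them, such as the NuRD helicase Chd4, are in general use by cells. The zeros are therefore given as they are listed and not as absence of expression.

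Among the readers, Mbd1, which recruits the histone methyltransferase Setdb1, and Mbd3, a subunit of NuRD with little preference for methylated DNA, were steady. Mbd1 had a normalized count of 380 ± 30.2 (SD, n = 27), with a lowest value of 323, a median of 377 and a highest of 446. Its lowest value came from library 3 and its highest from library 20. Mbd3 had 1127 ± 93.5 (SD, n = 27), with a lowest value of 955, a median of 1127 and a highest of 1280. Here library 3 was the highest, and the lowest values were those of libraries 12 and 20 (955 and 979), the libraries richest in ribosomal RNA. The SDs of the log2 levels were 0.11 for Mbd1 and 0.12 for Mbd3, smaller than those of most genes.

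Mbd2, which couples NuRD to methylated CpG, varied as much as the average gene. It stood at 441 ± 59.8 (SD, n = 27), from 364 in library 51 through a median of 434 to 630 in library 3. The next highest value was 542 in library 24. The SD of its log2 level was 0.18, and 47.9% of genes had a smaller one. Without library 3 the mean was 434 ± 47.3 (SD, n = 26).

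**Figure D1:**
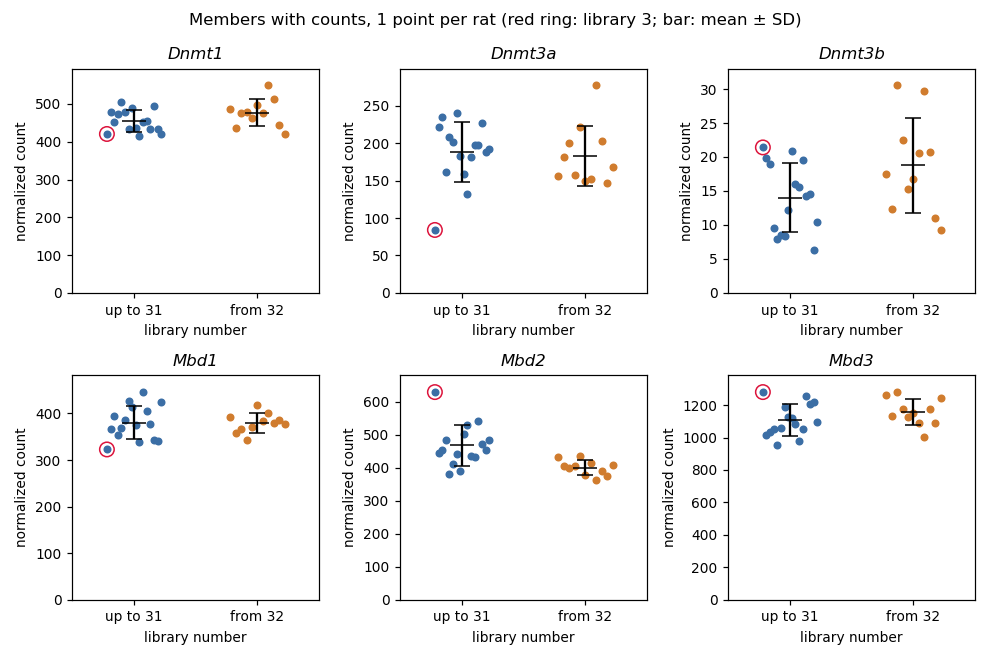
Normalized counts (vertical axes, from 0) of the 6 members with counts in libraries numbered up to 31 (n = 16) and from 32 (n = 11), 1 point per rat in the order of the library number, with mean ± SD and library 3 ringed. Library 3 is the lowest point for Dnmt3a (84.1) and Mbd1 (323) and the highest for Mbd2 (630) and Mbd3 (1280), and the blocks overlap for every gene.

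Whether a gene differed between rats by more than the noise of read counting was asked with a chi-square test for excess over Poisson variance, adjusted across genes by the Benjamini-Hochberg method. All 6 members passed, but so did 89.8% of genes, so that this count does not set the members apart. The adjusted p was lowest for Dnmt3a (7.72e-30), Mbd3 (2.17e-27) and Mbd2 (1.51e-25), and higher for Dnmt1 (6.12e-05), Dnmt3b (3.05e-05) and Mbd1 (0.000406). This p depends on the number of reads as well as on spread, so its order does not rank the members by variability. Mbd3, at a mean of 1127, had an SD of its log2 level of 0.12, and Dnmt3b, at 15.96, one of 0.55. Counting alone gave 43.04% of the variance of Dnmt1, 42.6% of that of Mbd1 and 41.4% of that of Dnmt3b, and between 12.3% and 13.2% of that of the other 3 members. In the dispersion fit of edgeR, the biological coefficient of variation was 6.94% for Dnmt1, where genes of its abundance had 12.9%, and 19.6% for Dnmt3a, where such genes had 16.3%. Within the blocks, 4 members passed in each, where 81.2% of genes passed up to 31 and 72.8% from 32. Dnmt1 (adjusted p = 0.0888) and Dnmt3b (0.0754) did not pass in the libraries up to 31, nor did Mbd1 (0.155) and Mbd2 (0.0705) in those from 32.

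The next question was whether the members differed between the 2 blocks of libraries. Mbd2 was lower in the libraries from 32, and it was the only member past the threshold of the quasi-likelihood test of edgeR (adjusted p under 0.05), which 18% of 11716 genes passed, 8.85% being higher and 9.18% lower from 32. Its normalized count ran from 380 through a median of 454 to 630 in the libraries up to 31 and from 364 through 406 to 437 in those from 32. The blocks overlapped, with the highest value from 32 below the median up to 31. The difference was -0.22 ± 0.06 on the log2 scale (SE, adjusted p = 0.0107), -0.18 without library 3 (where 18.9% of genes passed), and -0.11 (adjusted p = 0.036) once the share of ribosomal protein counts entered the fit, where 21.3% of genes passed and Mbd3 did too (0.12, adjusted p = 0.0483). Dnmt3b differed by 0.43 ± 0.20 (adjusted p = 0.142), Dnmt1 by 0.07 and Mbd3 by 0.06, Dnmt3a by -0.04 and Mbd1 by -0.0024, none past the threshold.

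Among the further genes of the pathway, 44 could be tested between the blocks, of which 2 were higher and 9 lower from 32, with a median log2 difference of -0.05 against -0.00062 over all genes tested. Over all genes 8.85% were higher and 9.18% lower, and the roles hold 1 to 10 tested genes each. Of the other methyl-CpG readers, 2 of 4 were lower. Zbtb33, which encodes the zinc finger reader Kaiso, had normalized counts of 39.5 ± 8.83 (SD, n = 16) up to 31 and 29.4 ± 6.71 (SD, n = 11) from 32, a log2 difference of -0.43 (adjusted p = 0.0217). Zbtb4, a related zinc finger protein, was at -0.13 (adjusted p = 0.016). At the other end of this group, Mbd6 differed by 0.21 without passing (adjusted p = 0.123).

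In the supply of methyl donor and cosubstrate, 3 of 9 genes were lower, where 9.18% of all genes were. They were Idh1, Mat2a at -0.32 (adjusted p = 9.55e-05) and Idh2 at -0.15 (adjusted p = 0.0414). Idh1, the cytosolic isocitrate dehydrogenase that makes the 2-oxoglutarate Tet enzymes consume, differed by -0.35 (adjusted p = 0.000146), and Ahcy, which clears the by-product of methylation, by 0.02 (adjusted p = 0.807). Among the tested genes of NuRD, the complex that holds Mbd2 or Mbd3, 1 of 9 was higher and 2 lower. They were Mta1 at 0.14 (adjusted p = 0.0193), and the histone binding protein Rbbp7 at -0.13 (adjusted p = 0.013) with the deacetylase Hdac2 at -0.10 (adjusted p = 0.049). Of the genes that remove oxidised or deaminated bases, 1 of 10 was higher, the repair scaffold Xrcc1 at 0.22 (adjusted p = 0.029), while Gadd45g was at -0.27 (adjusted p = 0.179).

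Over all genes 18% passed in either direction. Among maintenance factors 1 of 5 was lower, the replication clamp Pcna at -0.18 (adjusted p = 0.0374), and Uhrf1, which guides Dnmt1 to hemimethylated DNA, was at 0.04 (adjusted p = 0.879). Among CXXC proteins, which bind unmethylated CpG, 1 of 5 was lower, Kdm2b at -0.24 (adjusted p = 0.0248), and Cxxc1 was at 0.04 (adjusted p = 0.558). Setdb1, the tested partner of Mbd1, and Ogt, which attaches to Tet proteins, were at 0.05 and 0.02 (adjusted p = 0.503 and 0.79). Of 34 tested cell type and activity markers 2 passed. The neuronal Rbfox3 was higher from 32 (0.16) and the macrophage marker Mrc1 lower (-1.52). Of the other neuronal markers, Snap25, Slc17a7 and Gad1 were at 0.10, 0.13 and 0.0043 and Syt1 and Camk2a at -0.06 and -0.0057, none past the threshold. Of the other microglia and macrophage markers, Cx3cr1, Csf1r and P2ry12 were at 0.10, 0.05 and 0.06 and Aif1 at -0.14, none past the threshold. The part of cell composition in these differences was not tested, and in bulk tissue fewer cells of a type and less RNA per cell cannot be told apart.

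**Figure D2:**
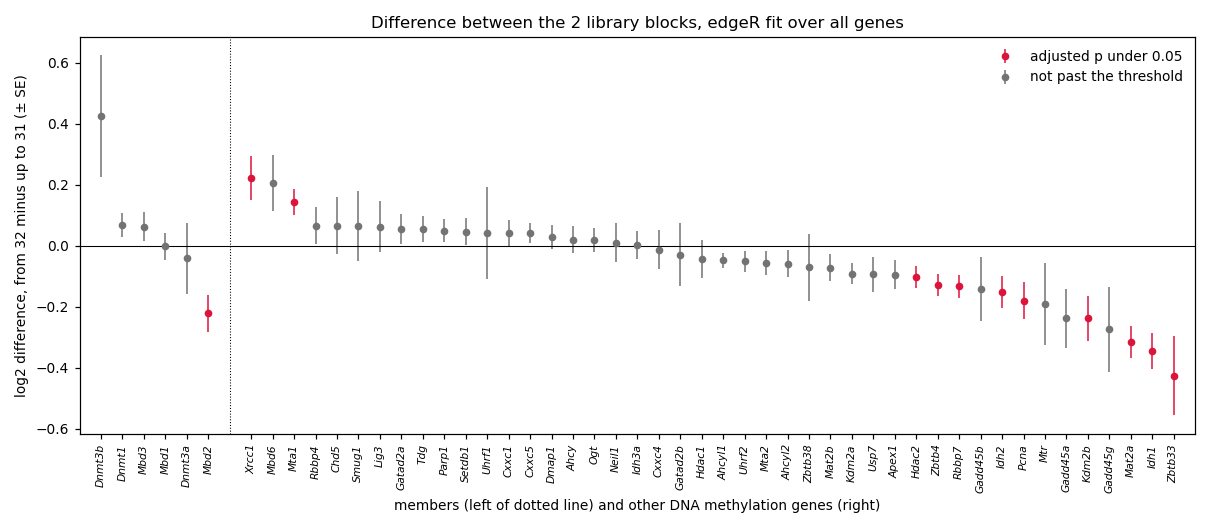
Log2 difference between libraries from 32 and up to 31 (vertical axis, ± SE) for the 6 members with counts, left of the dotted line, and 44 other DNA methylation genes, right of it, with genes past an adjusted p of 0.05 in red. Of the members, Mbd2 (-0.22) is red, and of the other genes Zbtb33 (-0.43) lies lowest.

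Whether the members varied together was examined across the 15 pairs of the 6 members with counts. The 1 pair past the test, in which each member served as covariate for all other genes and both directions had to pass, was Dnmt1 with Mbd2, and these moved in opposite directions. Mbd2 fell by 0.12 ± 0.03 on the log2 scale (SE, adjusted p = 0.0196) per SD of Dnmt1, a covariate that 7.63% of genes followed (4.81% in the opposite direction). Dnmt1 fell by 0.06 ± 0.02 (adjusted p = 0.00799) per SD of Mbd2, which 29.3% of genes followed (13.7% in the opposite direction). Spearman's rho of this pair was -0.618 (permutation p = 0.00078) and Pearson's r was -0.635 (permutation p = 0.00037), or -0.546 without the 2 libraries farthest from the median of Dnmt1. Within blocks, rho was -0.626 in the libraries up to 31 (permutation p = 0.0113) and -0.364 in those from 32 (permutation p = 0.272).

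Without library 3 the slopes of this pair kept their direction but the call was lost. Mbd2 was then at -0.10 ± 0.03 per SD of Dnmt1 (adjusted p = 0.0544), which 1.35% of genes followed, and Dnmt1 at -0.06 ± 0.02 per SD of Mbd2 (adjusted p = 0.0265), which 12.0% followed, with a rho of -0.577. With the block as a covariate Mbd2 was at -0.09 per SD of Dnmt1 (adjusted p = 0.0613), which 0.64% of genes followed, while Dnmt1 was at -0.07 per SD of Mbd2 and still passed (adjusted p = 0.0239). With the ribosomal protein share as a covariate Mbd2 was at -0.04 per SD of Dnmt1 (adjusted p = 0.908). In that fit Dnmt1 was at -0.06 ± 0.04 per SD of Mbd2 (adjusted p = 0.559), which 1.47% of genes followed. The fit with the block called 2 other pairs, where 28.1% of genes followed Dnmt3a, 32.6% Mbd2 and 14.4% Mbd3. Mbd2 was at -0.09 per SD of Dnmt3a (adjusted p = 0.00662) and Dnmt3a at -0.21 per SD of Mbd2 (adjusted p = 0.0168). Mbd3 was at 0.09 per SD of Mbd2 (adjusted p = 0.00768) and Mbd2 at 0.09 per SD of Mbd3 (adjusted p = 0.0216). Neither pair passed when library 3 was left out of that fit. Mbd2 was then at -0.04 per SD of Dnmt3a and Dnmt3a at -0.10 per SD of Mbd2, while Mbd3 and Mbd2 were each at 0.06 per SD of the other. For Dnmt3a against Mbd2, r was -0.459 over all libraries and -0.133 without library 3, while rho was -0.087 and 0.022.

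The pairs shared no common sign. Spearman's rho ranged from -0.618 to 0.318 over the 15 pairs, 9 of them below 0, and 8 pairs had the same sign in both blocks. The highest value joined Dnmt1 and Dnmt3a (rho 0.318, permutation p = 0.106). For Dnmt1 and Dnmt3b rho was 0.691 in the libraries from 32 (permutation p = 0.0215) but -0.138 in those up to 31, a difference that was not tested. The permutation tests were two-sided and are not adjusted for the number of pairs.

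**Figure D3:**
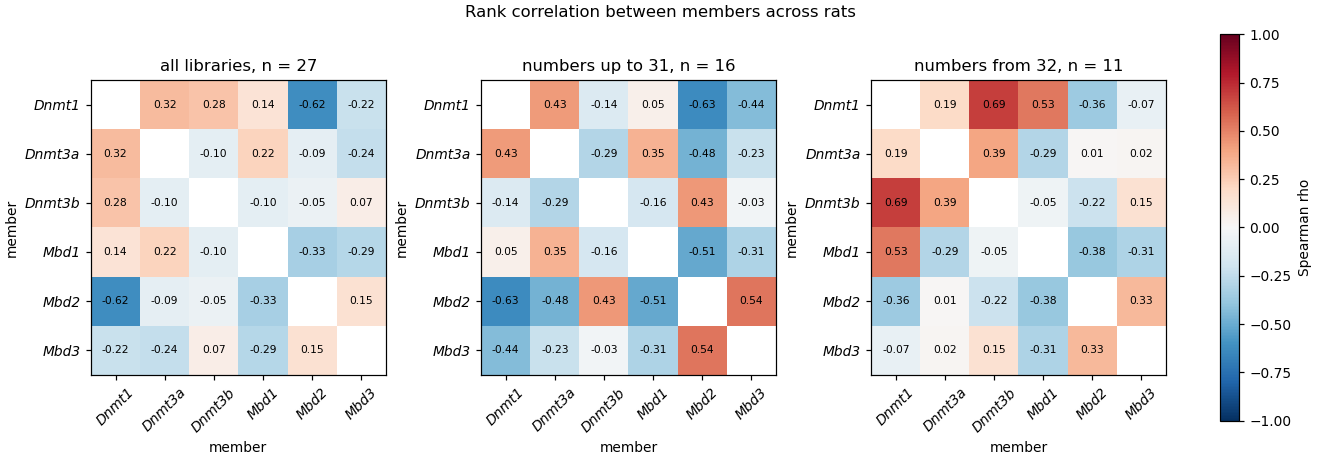
Spearman's rho between the 6 members with counts (both axes) over all libraries, those up to 31 and those from 32, with blue for negative and red for positive values. Dnmt1 and Mbd2 have the lowest value over all libraries (-0.618), and signs differ between the blocks in 7 of the 15 pairs.

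How far each member followed the rest of the transcriptome differed as widely. In the edgeR fit, 3553 of 12107 genes (29.3%) followed Mbd2 and 2831 (23.4%) followed Dnmt3a. Without library 3 these fell to 1438 (12.0%) and 473 genes (3.95%). With Mbd3 as the covariate 1442 genes (12.1%) passed and with Dnmt1 917, which fell to 162 (1.35%) without library 3. Dnmt3b and Mbd1 had 0 genes (0.0%) past the threshold. At an unadjusted p under 0.05 they had 951 and 2742 genes, and DESeq2 called 0 and 558.

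Each member was set beside the 3 genes of most similar rank order over the 27 libraries, among named genes that averaged 50 normalized counts or more. Mbd2 had the closest, Rpl11 (rho 0.953) and Rps4x (0.938), both proteins of the ribosome, and H3f3b (0.934), which encodes histone H3.3. Counts of these 3 genes are uncertain, since ribosomal protein and histone genes have many near-identical copies. Dnmt3a lay closest to Slc30a10 (0.880), a manganese exporter, Arhgef12 (0.872), a guanine nucleotide exchange factor, and Med1 (0.849), a subunit of Mediator. For Dnmt1 the closest were Kif3c (0.760), Exoc6b (0.759) and Nlgn3 (0.758), which encode a kinesin, an exocyst subunit and a synaptic adhesion protein. Mbd3 lay closest to Mlycd (0.759), Mlst8 (0.750) and Mcrs1 (0.748), Mbd1 to Sprn (0.734), Jak2 (0.709) and Sgtb (0.701), and Dnmt3b to C8h15orf39 (0.683), Meaf6 (0.667) and Slc52a2 (0.648). These are the highest of about 9759 values each and carry no test.

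Because ribosomal protein genes led the list of Mbd2, each member was compared with their share of the counts, a choice made after seeing the data. The values of Mbd2, which prompted the choice, are a description without a test, with a slope of 0.16 ± 0.02 on the log2 scale (SE) per SD of the share. Of the other 5 members, Dnmt1, Dnmt3a and Mbd1 fell with the share in the edgeR fit over all genes, where 35.9% of genes passed, 17.8% upward and 18.2% downward. Dnmt1 had already been seen to move against Mbd2. Dnmt3a fell by 0.21 ± 0.06 (adjusted p = 0.0042), Mbd1 by 0.06 ± 0.02 (adjusted p = 0.0177) and Dnmt1 by 0.06 ± 0.02 (adjusted p = 0.015). Mbd3 (0.05, adjusted p = 0.0894) and Dnmt3b (0.04, adjusted p = 0.805) did not pass. With the block as a covariate Mbd3 passed too (0.07, adjusted p = 0.0103), where 37.2% of genes passed. The further genes of the pathway were divided, with 9 of 45 up, 8 down and a median of 0.0012 per SD, against -0.0015 over all genes.

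For Mbd2, rho with the share was 0.851 and r was 0.879, and r was 0.842 without the 2 libraries farthest from the median of Mbd2. Within blocks, rho was 0.900 in the libraries up to 31 and 0.582 in those from 32, where the share spanned only 1.096% to 1.26%. Of 78 ribosomal protein genes with a mean of at least 50, 77 had a rho above 0 with Mbd2, and 0 had one with Dnmt1. Their median rho was 0.653 with Mbd2 and -0.558 with Dnmt1, against -0.05 and 0.010 over all genes.

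Some of these calls were lost without library 3. Without it 1 of the 5 passed, Dnmt1 (-0.06, adjusted p = 0.027), where 16.6% of genes passed, while Dnmt3a was at -0.08 (adjusted p = 0.337) and Mbd1 at -0.05 (adjusted p = 0.153). The slope of Mbd2 was then 0.13. For Dnmt3a rho was -0.202 over all libraries although r was -0.651, and without library 3 they were -0.106 and -0.303. In the libraries up to 31 without it, rho was -0.436 (permutation p = 0.107) and r was -0.618 (permutation p = 0.0144), or -0.252 without the 2 farthest libraries. In the libraries up to 31 alone 2 of the 5 passed, Dnmt3a and Mbd1, where 34.6% of genes passed, and Dnmt1 was at -0.06 (adjusted p = 0.0559). In the libraries from 32 alone 0 genes (0.0%) passed in edgeR, with 654 at an unadjusted p under 0.05, and the slope of Mbd2 was 0.05. What sets the share of ribosomal protein counts was not tested.

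**Figure D4:**
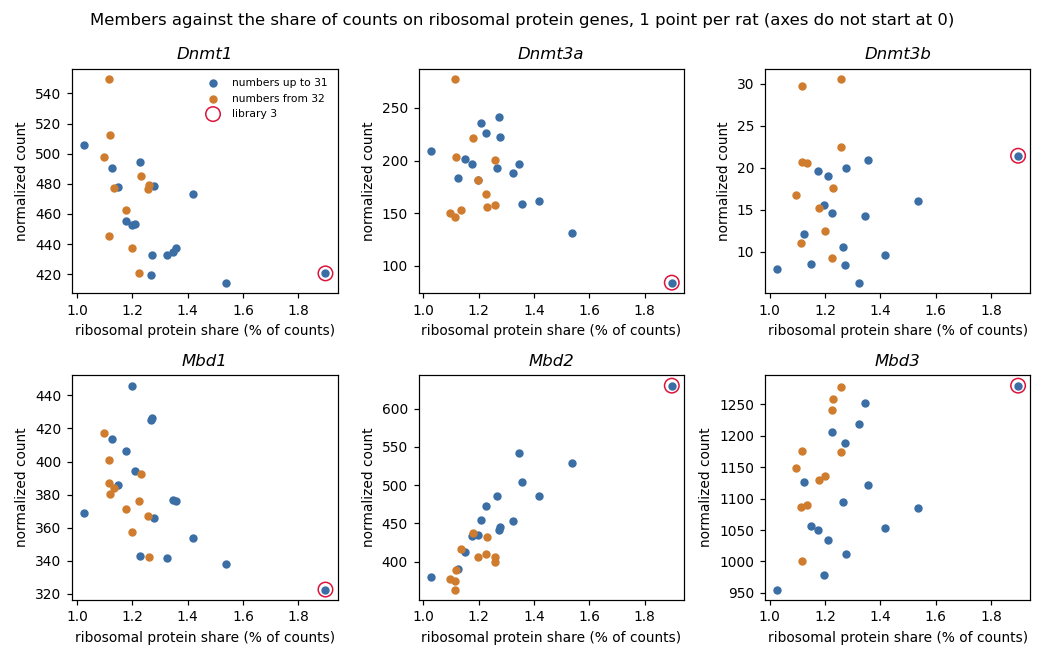
Normalized counts of the 6 members with counts (vertical axes, not from 0) against the share of counts on ribosomal protein genes (horizontal axes, percent), 1 point per rat, colored by block, with library 3 ringed at 1.90%. Mbd2 climbs along the whole range (rho 0.851), Dnmt1 and Mbd1 decline (rho -0.628 and -0.508), and the lowest point of Dnmt3a is the ringed library.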

How the data were processed

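The table deposited by the authors holds raw counts of reads per gene and library, not normalized. The submitters' processing notes name Trimmomatic, STAR and HTSeq. The genome build, the annotation and whether strand was used are not given in the sources used here, so overlapping genes, paralogs and pseudogenes are uncertain. Gene IDs were named from the RefSeq list of GRCr8, which named 27825 of 36865 rows, and 21787 rows had no count. No transcript length was available, so levels were not ranked between genes.

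Counts were divided by size factors from DESeq2 1.42.0 (median of ratios), and logs are log2(normalized count + 1). Spread was tested with the chi-square dispersion test on genes that averaged 10 or more reads. Block differences, member covariates (z scores) and the ribosomal protein share (85 rows with counts, left out of the genes tested) were fitted with the quasi-likelihood test of edgeR (version 4.0.16) after filterByExpr and TMM, with Benjamini-Hochberg adjustment over all genes tested at a threshold of 0.05. Correlations used 100000 two-sided permutations. In simulated counts of 11730 genes, 200 of them changed by a log2 value of 0.5, the block fit recovered 164 with 6 false calls and the member covariate fit 200 with 8. The dispersion test recovered 182 of 200 with 7 false calls. Recovery of changes smaller than 0.5 was not tested for the block and member covariate fits. In the data, the block difference of Mbd2 was -0.22 and its slope per SD of Dnmt1 was -0.12. The rate of false calls in the sequenced libraries themselves was not tested either. The software was R 4.3.3 and Python 3.11.15 with pandas 2.3.3, scipy 1.17.1, matplotlib 3.10.9 and numpy 2.4.6.

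Depth ran from 4907255 to 12771309 counts per library. Without molecular identifiers, counting variance covers counting error only, and p-values measure the spread between 27 rats. The members, gene lists and tests were chosen with earlier results of these data known. The text names the members, the 3 genes most alike to each in rank order, and for each role of the wider pathway the genes of highest and lowest block difference, and the cell type markers. Hdac2, Zbtb4, Mat2a, Idh2, LOC100910945, and the pathway genes listed at 0 were named after their values were seen. Of the wider list, 2 genes are not reported here. Alternatives were TMM, total counts or DESeq2 size factors, the Wald test of DESeq2, no filter, a pseudocount of 0.1, library number as a line, each block alone, the block as a covariate, and leaving out libraries 12 and 20. Leaving out library 3 and adding the ribosomal protein share were chosen after seeing the data.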

Additional observations from a re-analysis of the deposited data

How the results depend on the processing

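All 6 members with counts kept the call of spread beyond counting under TMM, total counts, no filter, and without libraries 12 and 20 or library 3. Mbd2 alone differed between blocks under every alternative run except the ribosomal protein share as a covariate, under which 2 members passed, Mbd3 being the second (0.12, adjusted p = 0.0483), as did 21.3% of genes. The adjusted p of Mbd2 ranged from 0.00306 to 0.036 over these alternatives. Differences near 0 changed sign, that of Dnmt3a to 0.0080 with library number as a line, and that of Mbd1 to 0.0034 without a filter, 0.010 without libraries 12 and 20 and 0.014 as a line. The number of pairs called was 1 with all libraries, 2 with the block as a covariate, and 0 in the libraries from 32 alone, without library 3, with the ribosomal protein share, or with the block and without library 3. In the libraries up to 31 alone 1 pair was called, Dnmt3a with Mbd2. Its r in this block was -0.705 with library 3 and -0.423 without it, and its rho -0.476 and -0.364. There Mbd2 was at -0.13 per SD of Dnmt1 (adjusted p = 0.0973) and Dnmt1 at -0.07 per SD of Mbd2 (adjusted p = 0.0334). With the ribosomal protein share Mbd2 was at 0.037 per SD of Dnmt3a and Mbd3 at -0.025 per SD of Mbd2, both the other way round than without it. Dnmt3b was at -0.036 per SD of the ribosomal protein share without library 3. Of the 5 members other than Mbd2, 3 followed that share with all libraries, 4 with the block as a covariate, 3 without libraries 12 and 20, 2 in the libraries up to 31, 1 without library 3 and 0 in the libraries from 32. The cause of these changes was not tested.

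No paired analysis was possible because the 27 rats form 1 group. The 11 deeper libraries are the fewer, and at 6 to 36 reads Dnmt3b permits no fine comparison. The erasers are listed at 0 and cannot be assessed.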
